A study of Rattus norvegicus with 12 samples.

Results

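Liver gene expression under a pair of test diets, a dairy diet and a leucine diet, was set against the same casein control, to see which genes differed from casein in one direction under both. The comparison takes the 8 arrays labelled dairy (4) or leucine (4) as its test side and the 4 arrays labelled casein as its control, which is 12 of the 12 samples of the series. Which arrays form each side follows the diet label alone. The comparison itself was chosen with earlier results of these data known. The mean of the dairy difference and the leucine difference, with equal weight for each diet, is called the mean of both diets below.

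All rats were male, of the Diet-induced obese Sprague-Dawley strain, and were sampled at 20 weeks of age after 8 weeks on their diet, which began at 12 weeks. Every group, the casein control included, ate freely of a diet high in fat and sucrose with 4.6 kcal per gram and 10% of its energy as protein. The casein diet drew that protein from casein, the main protein of milk. The dairy diet drew it from skim milk powder, which brings whey proteins, lactose and milk minerals along with casein. The leucine diet had 7.1% of energy as casein and 2.9% as added leucine, so that it held less of every other amino acid than the casein diet as well as more leucine. There was no lean or low-fat group, so the values describe differences between proteins within an obesogenic diet. The labels number the samples 1 to 4 within each diet and do not say whether each came from a separate rat. The p-values therefore measure the spread between these samples. Both differences are taken from the same 4 casein arrays, so a casein array that is high or low for a gene moves both in the same direction. No overlap or correlation between the diets is given as evidence for this reason.

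The signals are log2 values of whole liver RNA, 1 value per probe set and array, and they ran from 1.06 to 14.37. Tests were run over the 15310 probe sets that carry exactly 1 gene symbol, which stand for 14506 genes. Of 15 hepatocyte marker genes 14 were measured, and their mean lay between 10.99 and 11.32 on all test arrays and between 11.1 and 11.31 on casein arrays, with albumin at a mean of 13.7. In whole tissue, fewer cells of a type and less RNA per cell cannot be told apart. The spread of the values over probe sets (SD) was 2.138 on casein replicate 4 and 2.075 on dairy replicate 3, below the 2.236 to 2.333 of the other 10 arrays. Results that these arrays move are given with and without them.

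Cytosolic ribosomes make all proteins of the cell outside its mitochondria, and each holds a large and a small subunit built of RNA and many ribosomal proteins. Messages of ribosomal proteins in mammals commonly begin with an unbroken run of the pyrimidines C and T, known as a terminal oligopyrimidine tract. Through this tract the kinase complex mTORC1, which senses amino acids and leucine in particular, controls their translation and stability. The liver receives dietary amino acids first, through the portal vein, and there breaks down all of them except, in large part, the branched-chain ones.

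The start regions are shown because the genes that led on the higher side were mostly ribosomal proteins while those that led on the lower side were not. Each is the stretch from 40 bases before to 20 bases after the position where the gene begins in the RefSeq table of the rat assembly GRCr8, on the coding strand, 5′ to 3′. Capitals mark the longest unbroken run of C and T. The genes are the 3 each way with the smallest unadjusted p that have an entry, Rps15a, Rpl39 and Rpl41 on the higher side and Lzic, Trub1 and Mtg1 on the lower.
Rps15a, chr1:181860265-181860324, minus strand: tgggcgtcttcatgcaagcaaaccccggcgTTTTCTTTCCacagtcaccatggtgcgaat
Rpl39, chrX:121195877-121195936, minus strand: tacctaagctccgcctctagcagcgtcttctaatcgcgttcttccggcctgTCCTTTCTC
Rpl41, chr7:1563478-1563537, minus strand: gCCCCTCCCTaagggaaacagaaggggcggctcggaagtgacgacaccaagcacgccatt
Lzic, chr5:165211319-165211378, plus strand: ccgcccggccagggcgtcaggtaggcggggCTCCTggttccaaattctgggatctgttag
Trub1, chr1:266520607-266520666, plus strand: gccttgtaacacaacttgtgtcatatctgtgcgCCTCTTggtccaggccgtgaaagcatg
Mtg1, chr1:204361174-204361233, plus strand: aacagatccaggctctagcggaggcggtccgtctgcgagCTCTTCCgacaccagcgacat
The longest run measured 10 bases in Rps15a and 9 in Rpl39 and Rpl41, against 5 in Lzic, 6 in Trub1 and 7 in Mtg1. In Rpl41 it begins at position -39 from the annotated start, and in Rpl39 at position 11. A run of 8 or more stood in 7 of the 9 leading higher genes with an entry and in 2 of the 10 leading lower ones. The exceptions were Rps19 and Chchd2l3, each with a run of 5 in the window, on the higher side, and Use1 (9) and Brms1 (8) on the lower. The runs of Rps19 and Rpl39 reach the last base of the window, so their full lengths are not known here. The other higher runs begin at -37 in Sf3b5, -10 in Rps15a, -7 in Rps14 and Rpl22 and -1 in Rpl27a, the lower ones at -4 in Use1 and -15 in Brms1. These counts and the shares that follow take a run anywhere in the window, and bases before the annotated start lie outside the annotated message. They are therefore not counts of terminal oligopyrimidine tracts. A run of at least 8 C or T, searched on the coding strand only, was found in the 60-base window of 49 of 62 listed ribosomal protein genes with an entry (79.0%). Over all 27457 genes with an entry the share was 24.0%, and the median longest run was 6 bases against 10 in the ribosomal protein genes. This is a feature of the gene family, and the arrays do not measure translation. Annotated starts can lie some bases from the start used in liver.

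The small subunit protein gene Rps15a rose in the mean of both diets and was the only gene that passed the test. Probe set 10760208 read 6.37, 6.70, 6.52 and 6.78 in casein replicates 1 to 4. It read 8.49, 8.10, 8.73 and 8.43 with dairy and 8.20, 7.50, 7.84 and 8.22 with leucine. Every test array lay above every casein array, and dairy replicate 2 and leucine replicate 2 were the lowest of their diets. The means were 6.59 ± 0.185 with casein, 8.44 ± 0.258 with dairy and 7.94 ± 0.340 with leucine (SD, n = 4 each). The mean of both diets was higher by 1.59 ± 0.166 (SE) on the log2 scale, or 3.02-fold (95% interval of the log2 difference 1.23 to 1.95; limma adjusted p = 0.0036).

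All 6 probe sets of Rps15a passed, and in each the 8 test arrays lay above the 4 casein arrays. Their differences ran from 1.11 to 1.59 (2.16-fold to 3.02-fold; limma adjusted p from 0.0036 to 0.0294). Messages of this family have numerous near-identical genomic copies, so these probe sets may read the same messages and are not 6 independent results. These 6 made up all probe sets called higher, 0.0392% of those tested, and 0 were called lower (0.0%). Without casein replicate 4 limma called 98 probe sets, 77 higher and 21 lower, of 61 genes with Rps15a among them. When each gene was represented only by its probe set of highest mean signal, the Rps15a difference was 1.40 with an adjusted p = 0.0599, and no gene was called. That probe set, 10725159, had an adjusted p = 0.0155 in the test over all probe sets.

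Taken singly, each diet had a higher Rps15a signal than casein in all 6 probe sets. The dairy difference ran from 1.39 to 1.84 (2.62-fold to 3.59-fold) and the leucine difference from 0.84 to 1.35 (1.79-fold to 2.54-fold). For leucine the unadjusted p lay between 1.14e-05 and 0.000584, and the limma adjusted p between 0.12 and 0.999. The leucine value was therefore not called on its own. Dairy was, with a limma adjusted p between 0.00307 and 0.0133 over the 6 probe sets. A call for the mean of both diets can rest on 1 diet, and here dairy alone also passed. In probe set 10760208 leucine minus dairy was -0.50 ± 0.192 (SE; 95% interval -0.91 to -0.08; limma adjusted p = 0.669), which did not pass over all probe sets.

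**Figure D1:**
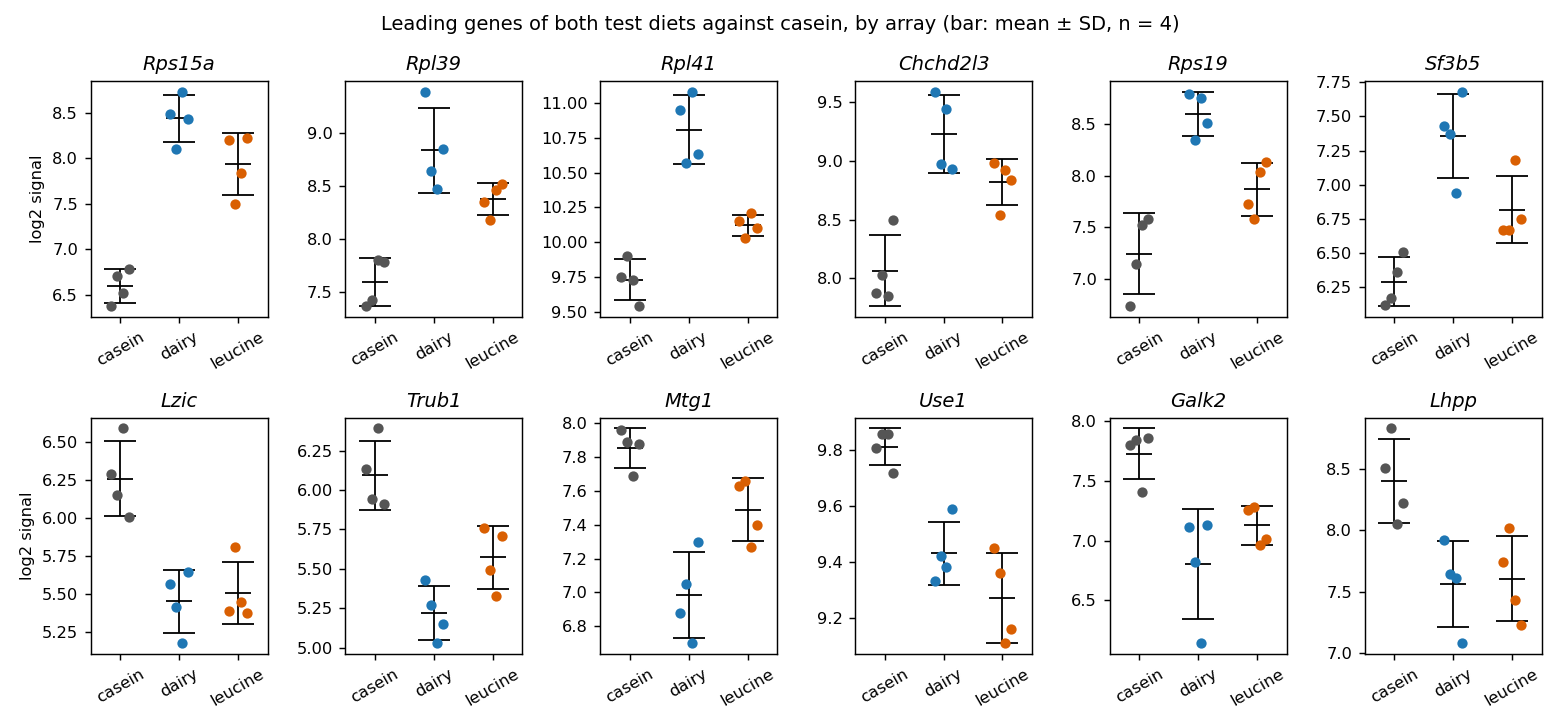
Log2 signal (vertical axes, each with its own range) of the 6 leading genes higher and the 6 leading genes lower with both test diets, by diet; points are the 4 arrays of each diet and bars the mean ± SD. In Rps15a the casein arrays reach 6.78 and the lowest test array, a leucine array, stands at 7.50, while in Rps19 the highest casein array and the lowest leucine array both stand at 7.58.

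A stricter question is which genes differed from casein in each diet by itself with the same sign. For this, each probe set was given the larger of its p-values for dairy and leucine, so that a gene passes only if both diets differ. By limma 0 probe sets passed (0.0%), and the lowest adjusted p was 0.12, in Rps15a. At an unadjusted p under 0.05 in both diets, 123 probe sets were higher (0.803%) and 113 lower (0.738%). Without leucine replicate 2, 2 probe sets of Rps15a passed. The dairy comparison alone called 13 probe sets (0.0849%), the leucine comparison 0 (0.0%, with 507 at an unadjusted p under 0.05 and a lowest adjusted p of 0.12). The dairy calls held all 6 probe sets of Rps15a. They also held probe sets of Rpl41, Rps19 and Rpl39 (lowest limma adjusted p 0.0149, 0.033 and 0.0436). With the replicate number as a block in the casein and leucine arrays alone, an alternative chosen after seeing the data, leucine called 1 probe set, and 894 had an unadjusted p under 0.05. It was that of Acsm5, a mitochondrial acyl-CoA synthetase, which differed by -2.0 (limma adjusted p = 0.0362) and is named here after its value was seen. In the fit over all 12 arrays its mean of both diets differed by -1.51 (adjusted p = 0.435). Leucine against dairy also called 0 (0.0%, with 1064 at an unadjusted p under 0.05 and a lowest adjusted p of 0.604). For the mean of both diets 448 probe sets were higher (2.93%) and 559 lower (3.65%) at an unadjusted p under 0.05.

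In 65 probe sets (0.425%) all 8 test arrays lay above the 4 casein arrays, and in 44 (0.287%) all lay below. The 65 stood for 39 genes, of which 13 genes with 38 probe sets encode cytosolic ribosomal proteins, while the 44 stood for 44 genes with 0 ribosomal proteins. Of the 65, 57 had an unadjusted p under 0.05 in both diets, as had 32 of the 44, beside 0.803% and 0.738% of all probe sets. The 65 and 44 were picked by the same values, which favours small p-values, so this is no further support for a change. Without casein replicate 4, 496 probe sets had all test arrays above casein and 423 had all below. Leaving out any casein array can only keep or raise these counts. Without casein replicates 1, 2 and 3 in turn they were 89, 109 and 110 above, and 73, 92 and 134 below.

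Among genes higher with both diets that did not pass for the mean of both diets, ribosomal proteins of the large subunit came first. Rpl39, one of the smallest proteins of the ribosome, read 7.37, 7.42, 7.80 and 7.78 with casein, 9.39, 8.64, 8.47 and 8.85 with dairy, and 8.35, 8.18, 8.46 and 8.52 with leucine. The groups did not overlap, and dairy replicate 1 was the highest array. The difference was 1.01 ± 0.171 (SE), or 2.02-fold, with a limma adjusted p = 0.109. All 7 of its probe sets separated the groups, with differences from 0.99 to 1.07 and adjusted p from 0.109 to 0.15, but 4 of the 7 hold identical values, which leaves 4 distinct readings. Rpl41, a very short peptide of the large subunit, read 9.75, 9.90, 9.73 and 9.54 with casein, 10.95, 10.57, 11.08 and 10.63 with dairy, and 10.15, 10.03, 10.21 and 10.10 with leucine. The 4 leucine arrays lay just above casein and well below dairy. The difference was 0.73 ± 0.126 (SE; adjusted p = 0.109), with 1.08 for dairy and 0.39 for leucine. The groups were separate in 2 of its 3 probe sets and overlapped in the other, which differed by 0.34 (adjusted p = 0.674), with 0.13 for leucine.

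Others of the large subunit had smaller differences. Rpl23a differed by 0.77 ± 0.154, Rpl27a by 0.60 ± 0.128, Rpl32 by 0.55 ± 0.114 and Rpl22 by 0.49 ± 0.109 (SE; limma adjusted p from 0.171 to 0.236). Rpl22 separated the groups in 3 of 3 probe sets, and its casein arrays lay close together, at 8.14, 8.16, 8.21 and 8.27, below a lowest test array of 8.38. In Rpl23a only 1 of 6 probe sets separated them. In the small subunit Rps19, the gene most often mutated in Diamond-Blackfan anaemia, differed by 1.00 ± 0.179 and Rps14 by 0.52 ± 0.114 (SE; adjusted p = 0.126 and 0.236). Rps19 separated the groups in 1 of 5 probe sets, and only by a margin below the rounding of the values.

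Genes outside the ribosome also led on the higher side. Sf3b5, a small subunit of the splicing factor SF3b, read 6.12, 6.17, 6.36 and 6.51 with casein, 7.43, 7.37, 6.94 and 7.68 with dairy, and 6.67, 6.67, 7.18 and 6.75 with leucine. All test arrays lay above casein, and the difference was 0.79 ± 0.157 (SE; limma adjusted p = 0.171). Prdx6, a peroxiredoxin that reduces oxidised phospholipids, was the one leading higher gene with a larger value for leucine. It read 8.90, 8.85, 8.49 and 9.26 with casein, 9.88, 9.36, 9.37 and 9.51 with dairy, and 9.84, 9.58, 9.53 and 9.86 with leucine. The highest casein array, replicate 4, lay just below the lowest dairy array. Its difference was 0.74 ± 0.158 (SE; adjusted p = 0.209), with 0.65 for dairy and 0.83 for leucine. Leucine minus dairy was 0.17 ± 0.183 (SE; 95% interval -0.22 to 0.57). Chchd2l3 differed by 0.96 ± 0.172 (SE; adjusted p = 0.126) and separated the groups in both of its probe sets.

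**Figure D2:**
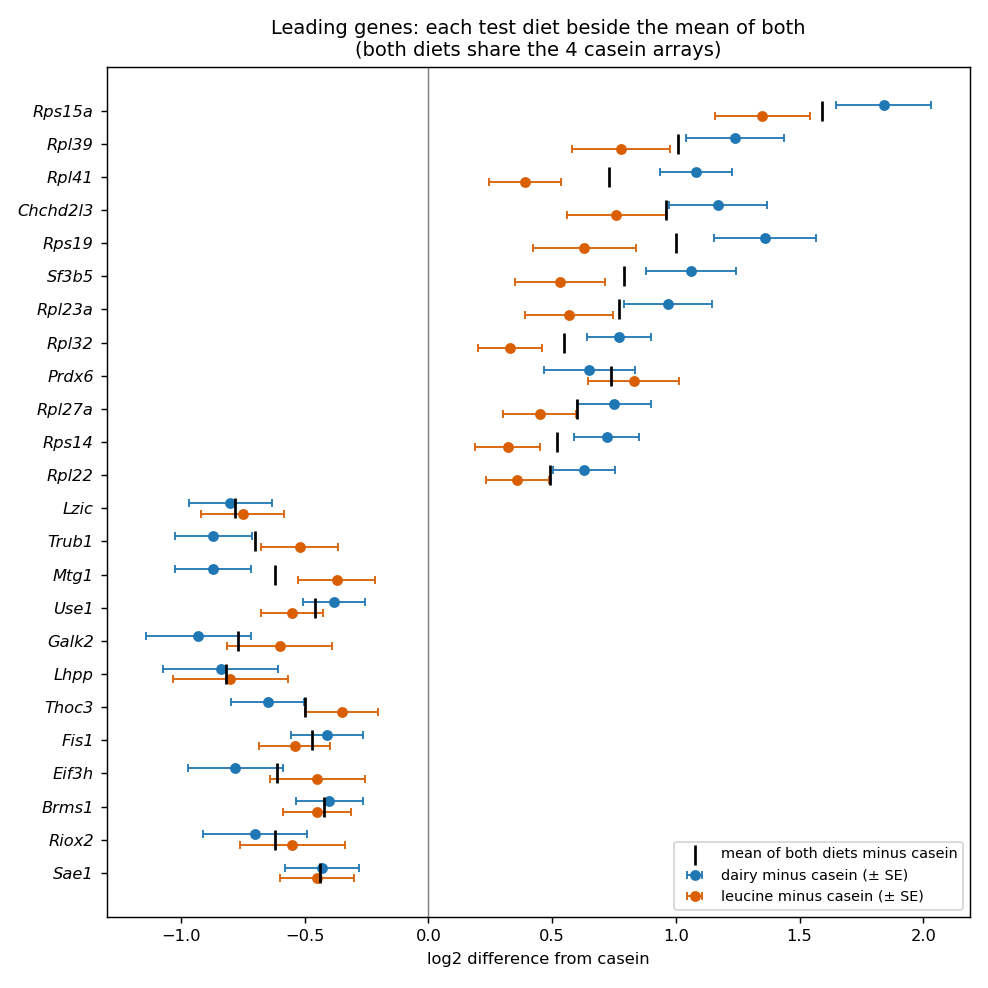
Log2 difference from casein (horizontal axis) for the 12 leading genes each way, with dairy (blue) and leucine (orange) as points ± SE and the mean of both as a black bar. Dairy lies farther from 0 than leucine in 11 of the 12 higher genes, Prdx6 being the exception. For the mean of both diets only Rps15a passed the test.

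The genes lower with both diets were of mixed function, and none passed. Lzic read 6.29, 6.15, 6.59 and 6.01 with casein, 5.57, 5.42, 5.18 and 5.65 with dairy, and 5.39, 5.81, 5.45 and 5.38 with leucine. Leucine replicate 2 stood closest to casein, and the groups did not overlap. The difference was -0.78 ± 0.146 (SE; limma adjusted p = 0.146), and the diets were nearly equal at -0.80 and -0.75. Trub1, an enzyme that places pseudouridine in RNA, read 6.13, 5.94, 6.39 and 5.91 with casein, 5.43, 5.27, 5.03 and 5.15 with dairy, and 5.76, 5.49, 5.33 and 5.71 with leucine. It differed by -0.70 ± 0.135 (SE; adjusted p = 0.15). Mtg1, a GTPase needed to assemble the mitochondrial ribosome, read 7.96, 7.89, 7.69 and 7.88 with casein, 6.88, 7.05, 6.70 and 7.30 with dairy, and 7.63, 7.66, 7.27 and 7.40 with leucine. Leucine replicate 2 came close to the lowest casein array, replicate 3. The difference was -0.62 ± 0.134 (SE; adjusted p = 0.226).

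Several of the other lower genes had like values for both diets. Lhpp, a phosphatase of phosphohistidine, differed by -0.82 ± 0.201, with -0.84 for dairy and -0.80 for leucine. Fis1, an outer membrane protein that takes part in mitochondrial fission, differed by -0.47 ± 0.125, with -0.41 and -0.54. Sae1, a subunit of the enzyme that activates SUMO, differed by -0.44 ± 0.130, with -0.43 and -0.45, and Brms1, a subunit of histone deacetylase complexes, by -0.42 ± 0.119, with -0.40 and -0.45. Use1, a SNARE of transport from Golgi to endoplasmic reticulum, differed by -0.46 ± 0.109, with -0.38 for dairy and -0.55 for leucine (errors are SE). In these 5 genes limma's adjusted p ran from 0.293 to 0.523.

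The other 4 lower genes lay farther from casein with dairy than with leucine. Eif3h, a subunit of the initiation factor eIF3, differed by -0.61 ± 0.167 in 1 of its 2 probe sets and by -0.31 in the other. Riox2, an oxygenase that hydroxylates the ribosomal protein Rpl27a, differed by -0.62 ± 0.183, and Thoc3, of the THO complex of mRNA export, by -0.50 ± 0.128. Galk2, a kinase of N-acetylgalactosamine, differed by -0.77 ± 0.184 (SE; limma adjusted p from 0.309 to 0.523 for these 4 genes in their leading probe set). In Riox2 leucine replicate 3 was lowest of all arrays, at 5.74 against 6.54 to 6.78 in the other leucine arrays.

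Zfp184 and Cdk5rap1 lie below the median signal of 5.33 and fell outside the rule for naming, and they were picked after their values were seen because their values for both diets were nearly equal. Zfp184, a zinc finger protein, read 4.20, 3.54, 3.54 and 4.15 with casein, 2.65, 3.01, 3.19 and 2.83 with dairy, and 2.75, 3.04, 2.81 and 2.91 with leucine. It differed by -0.96 ± 0.163 (SE; limma adjusted p = 0.109), with -0.94 for dairy and -0.98 for leucine. At this dim signal the change may be understated. Cdk5rap1, an enzyme that modifies mitochondrial tRNAs, differed by -0.64 ± 0.135 (SE; adjusted p = 0.2), with -0.66 and -0.63.

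The calls depended on the array of casein replicate 4, which was the highest casein array in 9 of the 12 leading higher genes. Without it 10 of the 24 leading genes passed. These were Rps15a (1.66), Rpl39 (1.08), Rpl41 (0.67), Chchd2l3 (1.11), Rps19 (1.11), Sf3b5 (0.87), Rpl23a (0.86), Prdx6 (0.87), Lzic (-0.86) and Trub1 (-0.76), with log2 differences in brackets and limma adjusted p from 0.00946 to 0.0495. Without both arrays of narrow spread, a choice made after seeing the data, these 10 and Rpl32 passed.

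Over the whole family of cytosolic ribosomal proteins, 68 of 78 listed genes were measured, each by its probe set of highest mean signal. The list had a higher signal in 51 genes and a lower one in 17, beside 6405 and 8101 of all 14506 genes. Its median log2 difference was 0.26, with 0.34 for dairy and 0.18 for leucine, against -0.029, -0.023 and -0.031 over all 14506 genes. At an unadjusted p under 0.05, 30 of the 68 were higher and 1 lower, beside 2.38% and 3.72% of all genes. All 8 test arrays lay above casein in 10 of the 68 and below in 0, beside 0.241% and 0.303% of all genes. The 10 were Rpl17, Rpl22, Rpl27a, Rpl31, Rpl35a, Rpl39, Rpl41, Rps7, Rps14 and Rps15a. Only Rps15a passed the adjusted test. Several of these are leading genes described above, and the list was written with earlier results of these data known. Its counts are therefore no separate support.

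Ribosomal proteins did not all lie on one side. Rps3, a small subunit protein at the mRNA entry channel, was the 1 gene lower at an unadjusted p under 0.05 (-0.54 ± 0.235 SE, limma adjusted p = 0.702), with -0.52 for dairy and -0.56 for leucine. Rpl4 followed at -0.29 and Rps6, the ribosomal protein phosphorylated downstream of mTORC1, at -0.25 ± 0.141 (SE). The small subunit had the higher median, 0.36 over 26 genes with 22 higher, against 0.19 over 41 genes with 28 higher in the large subunit. The 52 genes with several probe sets had a median of 0.34, and the 16 genes with 1 probe set a median of 0.076, with 4 higher at an unadjusted p under 0.05.

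Each array was also summarised by the median over the 68 genes of the signal minus the gene's casein mean. Casein replicates 1 to 4 stood at -0.072, 0.016, 0.011 and 0.029, dairy at 0.42, 0.34, 0.18 and 0.45, and leucine at 0.23, 0.072, 0.21 and 0.17. All 8 test arrays lay above all 4 casein arrays, leucine replicate 2 by the least. Subtracting the casein mean holds the casein arrays near 0. Without it, the mean signal of the list was 9.64 to 9.73 on casein arrays and 9.75 on leucine replicate 2. Dairy replicate 3, the array of narrowest spread, was the lowest of its diet. Between the diets, 16 of the 68 genes were lower with leucine than with dairy at an unadjusted p under 0.05 and 0 were higher, beside 2.99% and 3.72% of all genes, and none passed the adjusted test. Over the alternatives of normalization and of leaving out 1 array or both arrays of narrow spread, the list's median for the mean of both diets lay between 0.21 and 0.30.

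**Figure D3:**
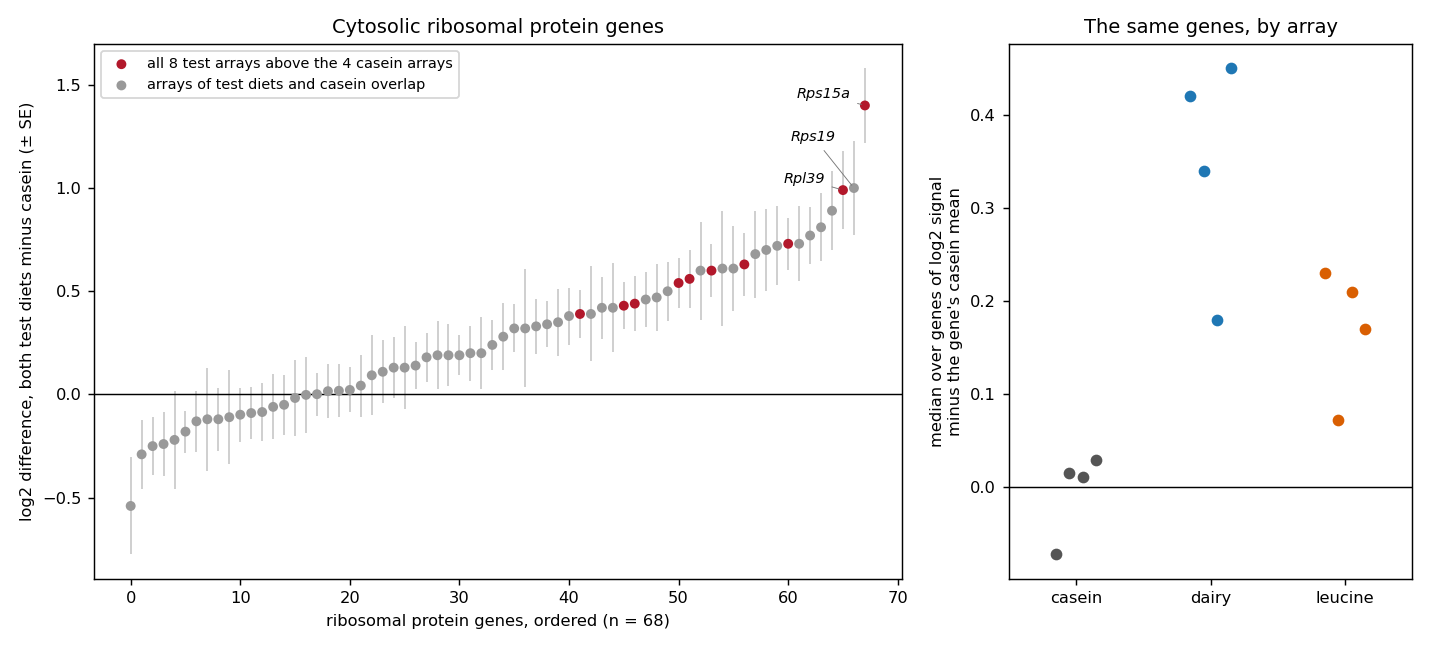
Left, log2 difference of the mean of both test diets from casein (± SE) for the 68 measured ribosomal protein genes in order of size, with the 10 whose 8 test arrays all lie above casein in red; right, the median over the same genes of log2 signal minus the gene's casein mean, 1 point per array. The casein arrays reach 0.029 and the lowest test array, leucine replicate 2, stands at 0.072.

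Markers of red blood cells were higher on most test arrays too. Of 13 erythroid markers 8 were measured, and all 8 were higher, beside 6405 of all 14506 genes. Their median was 0.26 (0.14 for dairy, 0.36 for leucine). Haemoglobin beta (Hbb) differed by 1.08 ± 0.370 and Hbb-b1 by 1.03 ± 0.337 (SE; limma adjusted p = 0.597 and 0.577). They were the 2 genes at an unadjusted p under 0.05, beside 2.38% of all genes higher at that p. By array the erythroid median lay between -0.12 and 0.098 with casein and between 0.064 and 0.32 with dairy. With leucine replicates 1 to 4 it was 0.14, -0.12, 1.60 and 0.14, so leucine replicate 3 stood far above all others and leucine replicate 2 within casein. The part of blood in the ribosomal protein values was not tested.

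Neutrophil markers were higher in 10 of 11 genes, with a median of 0.37 and 0 at an unadjusted p under 0.05, and their array values overlapped widely, from -0.72 to 1.03 with casein and from -0.66 to 1.74 with the test diets. Hepatocyte markers had a median of -0.10, stellate cell and fibrosis markers 0.14, adipocyte markers 0.12, skeletal muscle markers 0.11 and pancreas markers 0.031. Kupffer cell and macrophage markers stood at 0.013, lymphocyte markers at -0.025, cholangiocyte markers at -0.055 and endothelial markers at -0.13. At most 1 gene each way in any of these lists had an unadjusted p under 0.05.

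Mitochondrial translation and RNA processing genes had a median of -0.044 over 76 genes, with 3 higher and 6 lower at an unadjusted p under 0.05, beside 2.38% and 3.72% of all genes. The 2 whose test arrays all lay below casein, beside 0.303% of all genes, were Trub1 and Mtg1. Both are leading lower genes described above, and the list was written with earlier results of these data known. Their place in it is therefore no separate support. Oxidative phosphorylation had a median of 0.015 over 65 genes, with 7 higher and 3 lower at an unadjusted p under 0.05. The 2 with the smallest p were Uqcr11 of complex III (0.80 ± 0.194) and Atp5po of the ATP synthase (0.60 ± 0.151; SE, limma adjusted p = 0.31 and 0.35). Their casein and test arrays overlapped.

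Genes that sense amino acids or answer their shortage were also read. In the list of mTORC1 and amino acid sensing the median was -0.057 over 31 genes. At an unadjusted p under 0.05, 1 was higher and 1 lower, beside 2.38% and 3.72% of all genes. The higher one was Eif4ebp1, an inhibitor of translation initiation that mTORC1 inactivates, which read 6.74, 6.97, 7.24 and 8.47 with casein, 8.09, 8.08, 7.94 and 8.35 with dairy, and 7.79, 7.57, 8.08 and 8.30 with leucine. Casein replicate 4 stood above every test array, and the other 3 casein arrays below every one. The difference was 0.67 ± 0.271 (SE; limma adjusted p = 0.688), and it was among the genes called without that array. The lower one was Lamtor4, a subunit of the lysosomal Ragulator complex (-0.27 ± 0.109).

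Targets of ATF4, the transcription factor of the amino acid shortage response, had a median of 0.075, with 0.16 for dairy and 0.0038 for leucine, and 5 of 35 were higher and 1 lower at an unadjusted p under 0.05, beside 2.38% and 3.72% of all genes. Ddit4, an inhibitor of mTORC1, differed by 0.97 ± 0.303 (SE; limma adjusted p = 0.556), with 1.17 for dairy and 0.77 for leucine. Shmt2, the mitochondrial serine hydroxymethyltransferase, went the other way in a narrow band. It read 9.85, 9.71, 9.68 and 9.77 with casein, 9.59, 9.38, 9.48 and 9.51 with dairy, and 9.45, 9.51, 9.37 and 9.25 with leucine. All test arrays lay below casein, and the difference was -0.31 ± 0.101 (SE; adjusted p = 0.577). Trib3, a pseudokinase induced by ATF4, differed by 0.70 ± 0.265, but by 1.16 with dairy and 0.24 with leucine.

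In the proteasome, the complex that degrades tagged proteins, 22 of 31 genes were lower, beside 8101 of all 14506 genes. Its 5 genes at an unadjusted p under 0.05 were all higher, beside 2.38% of all genes. Pomp, which assembles the proteasome, differed by 0.88 ± 0.199, with 0.89 for dairy and 0.87 for leucine, and the subunit Psmb3 by 0.62 ± 0.156 (SE; limma adjusted p = 0.263 and 0.35). In both genes casein replicate 4 was the highest casein array, at 8.45 and 8.16. In the list of autophagy and lysosome 23 of 32 genes were lower, and 5 lower against 0 higher ones had an unadjusted p under 0.05, beside 3.72% and 2.38% of all genes, with a median of -0.14. Ctsk, a lysosomal cysteine protease, read 5.79, 5.44, 6.18 and 5.80 with casein, 4.70, 4.94, 4.97 and 4.97 with dairy, and 5.24, 5.43, 5.46 and 5.31 with leucine. Leucine replicate 3 lay just above casein replicate 2, so the groups overlapped by that pair. Ctsk differed by -0.67 ± 0.137 (SE; adjusted p = 0.171), and its exact permutation test gave p = 0.00606, or 0.0848 adjusted over the 21 key genes tested in this way. Mtg1 had p = 0.00808 in that permutation test and the same adjusted value. The key genes were chosen with earlier results of these data known, and the adjustment does not allow for that choice. Gabarapl2, which takes part in building autophagosomes, differed by -0.81 ± 0.205 (adjusted p = 0.353).

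**Figure D4:**
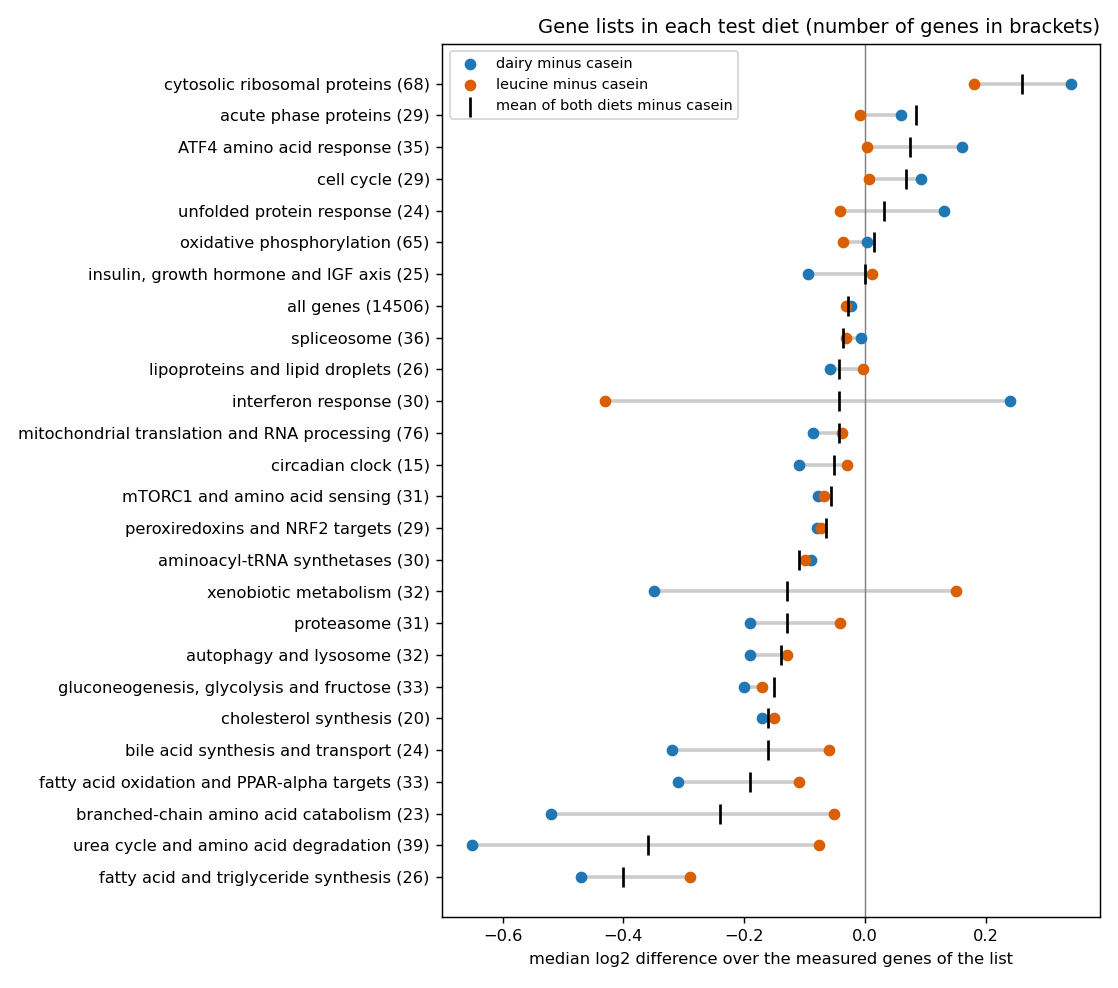
Median log2 difference from casein over the measured genes of each list (horizontal axis) with dairy (blue), leucine (orange) and the mean of both diets (black bar); brackets give the number of genes. Cytosolic ribosomal proteins stand at 0.34 and 0.18, and urea cycle and amino acid degradation stand at -0.65 with dairy and -0.076 with leucine.

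Lists whose mean over both diets came mostly from one diet, or whose diets had opposite signs, are set out with both values. Of 39 urea cycle genes and genes degrading amino acids 35 were lower, beside 8101 of all 14506 genes. At an unadjusted p under 0.05, 10 of the 39 were lower, beside 3.72% of all genes. Their median was -0.36. Dairy stood at -0.65 and leucine at -0.076, and 21 of the 39 genes were higher with leucine than with dairy at an unadjusted p under 0.05, beside 3.72% of all genes. Bhmt, which remethylates homocysteine, differed from casein by -1.13 with dairy and -0.42 with leucine, Gnmt, which methylates glycine, by -1.0 and -0.42, and Cps1, which commits ammonia to urea, by -0.61 and -0.20. No gene of the list passed either comparison by limma. Branched-chain amino acid catabolism had a median of -0.24, with -0.52 for dairy and -0.052 for leucine, and xenobiotic metabolism -0.13, with -0.35 and 0.15. The interferon response had a median of -0.044, with 0.24 for dairy and -0.43 for leucine. For the mean of both diets 0 of 30 genes had an unadjusted p under 0.05. Its array values overlapped widely, from -0.5 to 1.73 with casein, from -0.9 to 1.86 with dairy and from -1.1 to 0.018 with leucine.

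The list of fatty acid and triglyceride synthesis lay lower with both diets, at -0.47 for dairy and -0.29 for leucine. Of its 26 genes 24 were lower, but 0 had an unadjusted p under 0.05 by limma, and arrays of the same diet lay far apart. Fasn, the fatty acid synthase, read 10.94, 11.42, 8.36 and 8.73 with casein, 10.99, 8.87, 9.38 and 7.92 with dairy, and 10.23, 9.48, 8.18 and 7.39 with leucine. Each diet spanned more than the difference of -0.81 ± 0.721 (SE). Leucine lay below casein at each replicate number, and with these numbers as a block in the casein and leucine arrays alone it differed by -1.04 (unadjusted p = 0.00476, limma adjusted p = 0.826). The labels state no pairing, and this block was chosen after seeing the data. G6pc1, the last enzyme of glucose production, spanned 7.09 to 11.79 with casein alone, and its difference was -1.34 ± 1.25 (SE). Fatty acid oxidation had a median of -0.19 (28 of 33 genes lower, 2 of these with an unadjusted p under 0.05). Gluconeogenesis, glycolysis and fructose metabolism had a median of -0.15 (29 of 33 lower, 1 higher and 2 lower at an unadjusted p under 0.05). Over all genes 2.38% were higher and 3.72% lower at that p, so the counts of these lists lie near those shares.

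Peroxiredoxins and NRF2 targets held Prdx6 as the one member above casein on all test arrays, beside 0.241% of all genes, while the list's median was -0.064. Its 2 lower genes at an unadjusted p under 0.05, beside 3.72% of all genes, were Gpx1, the main glutathione peroxidase of the liver (-0.52 ± 0.163), and Prdx3, the mitochondrial peroxiredoxin (-0.46 ± 0.180; SE, limma adjusted p = 0.556 and 0.668). Prdx6 and Prdx3 thus stood on opposite sides of casein in both diets, Prdx3 at -0.51 with dairy and -0.41 with leucine. The remaining lists had these medians for the mean of both diets: the proteasome (-0.13), bile acids (-0.16), cholesterol synthesis (-0.16), aminoacyl-tRNA synthetases (-0.11), the circadian clock (-0.052), lipoproteins (-0.044), the spliceosome (-0.037), the insulin and growth hormone axis (-0.00085), the unfolded protein response (0.032), the cell cycle (0.067) and acute phase proteins (0.085). In 15 of 37 lists, marker lists and key genes included, the median took both signs over the alternatives of normalization and of leaving out 1 array or both arrays of narrow spread. Among these were mitochondrial translation (-0.084 to 0.013), oxidative phosphorylation (-0.12 to 0.063), xenobiotic metabolism (-0.28 to 0.0047), the interferon response (-0.31 to 0.44) and acute phase proteins (-0.082 to 0.15).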

How the data were processed

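Liver RNA was hybridised to Affymetrix Rat Gene 1.0 ST arrays, 1 array per sample. The deposited values are log2 signals that the authors made, per the submitters' processing notes, with Affymetrix Expression Console. Its version, its algorithm and the build were not given in the sources used here. The signals were used as deposited. Of 29214 probe sets 15310 had 1 symbol in the platform annotation, 323 several and 13581 none listed. limma 3.58.1 in R 4.3.3 was fitted to 3 group means over 12 arrays (9 residual, 3.448 prior degrees of freedom), two-sided, with Benjamini-Hochberg adjustment over the 15310 at 0.05, and was tested on simulated data. Tables used Python 3.11.15. Lists were read through the brightest probe set of each gene.

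Named genes were up to 15 each way past the threshold, with places up to 12 filled by the smallest unadjusted p among non-overlapping probe sets above the median signal, up to 3 per list, and the key genes. The comparison, members and lists were chosen with earlier results of these data known. Replicate numbers did not pair all 3 diets: deviations from group means of same-numbered arrays correlated between -0.505 and 0.502 for casein with dairy and between -0.304 and 0.59 for dairy with leucine. For casein with leucine all 4 lay between 0.208 and 0.532, so that comparison was also fitted with the number as a block. The labels state no pairing, and this choice rests on the same data. The alternatives were other normalizations, filters, variance models and array weights, the replicate number as a block, and leaving out arrays. Precision is limited by the 12 arrays.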

Additional observations from a re-analysis of the deposited data

Results flagged for a closer look

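In 20 of 420 groups of 4 arrays (140 named probe sets, 3 diets; 4.76%) 1 array stood apart, its gap to the nearest other array divided by the group's range, being above Dixon's 95% critical value. Chance flags about 1 in 20 groups, so this number is close to what chance gives. Among the leading genes, log2 signals that stood apart were Sf3b5 in leucine replicate 3 (7.18, others 6.67 to 6.75), Lzic in leucine replicate 2 (5.81, others 5.38 to 5.45), Galk2 in casein replicate 3 (7.41, others 7.80 to 7.86) and Fis1 in casein replicate 3 (8.93, others 9.10 to 9.13). Sf3b5 and Lzic were displaced away from and towards casein respectively, and Galk2 and Fis1 towards the test diets.

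In dairy replicate 1 the genes were Ivd (9.02), Hibch (6.24), Ugt2b1 (8.37), Ins1 (6.79) and Ctsk (4.70). In dairy replicate 3 they were Prdx3 (8.69), Csf1r (7.56) and Cela1 (5.56), and in dairy replicate 4 Acta1 (5.39) and Bcat2 (5.31). In casein replicate 1 Bhmt (13.4) and Retn (4.87) stood apart, and in casein replicate 4 Igfbp2 (4.29). In leucine replicate 1 these were Ugt2b1 (8.93) and Irf9 (6.33), and in leucine replicate 4 Cd163 (8.24).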

How the results depend on the processing

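The Rps15a difference in probe set 10760208 lay between 1.52 and 1.67 and stayed called in all 21 alternatives that include it, with limma adjusted p from 0.00165 to 0.0356. The brightest Rps15a probe set, 10725159, lost its call in 9 alternatives (adjusted p from 0.0504 to 0.127). The number of called probe sets (6, of 1 gene) was less stable. It was 2 after quantile normalization, 3 with the 8 test arrays as 1 group, 0 with 1 probe set per gene (0 genes, 0 higher), 12 over all probe sets in the file (3 lower), 6 with trend and robust (1 lower, Zfp184, so 2 genes), 323 with array weights (191 higher, 132 lower, 250 genes) and 145 without both arrays of narrow spread, an alternative chosen after seeing the data (110 higher, 35 lower, 97 genes). With 1 array left out it ran from 2 to 98 (higher 2 to 77, lower 0 to 21, genes 1 to 61), the upper ends without casein replicate 4. With the replicate number as a block over all 12 arrays it was 4, all Rps15a. In the casein and leucine arrays alone the block was chosen after seeing the data, because same-numbered arrays correlated, and the labels state no pairing. It gave 1 call for leucine against casein (0 without it), and Rps15a had a limma adjusted p = 0.504. At an unadjusted p under 0.05, higher and lower counts (448 and 559) were 1158 and 1217 over all probe sets, 1416 and 2216 with weights, 1104 and 1454 without the narrow arrays, and 284 to 1044 and 274 to 1487 with 1 array left out. Counts in both diets (123 and 113) were 355 and 335, 517 and 766, 500 and 557, and 76 to 412 and 61 to 482, with 72 higher for 1 probe set per gene; called in both ran from 0 to 2. Non-overlapping counts (65 above, 44 below) were 120 and 125 over all probe sets, 553 and 456 without the narrow arrays, 70 to 496 and 46 to 423 with 1 array left out, and 35 above with 1 probe set per gene. Signs turned in 4 of 140 named genes, none of them called. Fgf21 (-0.018) was 0.0054 after quantile normalization, 0.0072 without the narrow arrays, and 0.31, 0.34, 0.28, 0.11, 0.042 and 0.091 without casein 2, casein 4, dairy 2, dairy 4, leucine 2 or leucine 3 (range -0.64 to 0.34). Pck1 (-0.15) was 0.072 without casein 2 and 0.09 without leucine 3, Scd (-0.45) 0.25 without casein 2 (range -1.11 to 0.25), and Pecam1 (-0.15) 0.013 with weights. The cause was not tested.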
